A study of Heterocephalus glaber and Cavia porcellus and Spalacopus cyanus with 7 samples.

Results

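The RNA content of naked mole-rat oocytes was described across all 5 of the naked mole-rat libraries among the 7 libraries of the study, each library holding the oocytes of 1 female. The libraries were chosen by species alone, and every gene with a symbol was kept. The study sequenced oocyte RNA of rodents, and its 2 other libraries, of guinea pig and coruro oocytes, were not used here. The females were 1 to 8 years old, with no treatment or allele named in the labels, and individual ages were not stated. The oocytes were fully grown or late in growth, were freed from follicles by mechanical disruption, and were cleared of cumulus cells by pipetting. Replicates 2 to 5 also carry a letter, Y or O, in their labels, which is not explained and by which nothing was compared.

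A fully grown mammalian oocyte transcribes little and lives on RNA stored during growth, which is translated in stages through meiotic maturation and the first divisions of the embryo. It is enclosed by granulosa cells, and the innermost of these, the cumulus cells, send thin projections through the zona pellucida to the oocyte surface. Among granulosa products, Amh encodes anti-Mullerian hormone and Inha the alpha subunit of inhibin, whereas the oocyte itself makes the zona glycoproteins (Zp2, Zp3) and the growth factors Gdf9 and Bmp15. Granulosa cells also take up glucose and pass pyruvate to the oocyte, which makes little use of glycolysis.

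The gene tables held 26623 entries, of which 15860 had a symbol and are called named genes here, 10737 had only a LOC number and 26 had symbols resembling dates. Library totals were 13512223, 27279716, 13809177, 28040089 and 29561451 counts for replicates 1 to 5, and named genes took 92.5 to 93.7% of them. Levels are given as counts per 1000000 counts of the library (CPM), so the level of a gene also holds the length of its transcript. Replicate 1 stood apart from the rest: the median named gene with a mean of at least 10 CPM differed between replicate 1 and another library by 0.65 to 0.85 on the log2 scale, between replicate 5 and replicates 2, 3 or 4 by 0.54 to 0.61, and among replicates 2, 3 and 4 by 0.30 to 0.32. Its counts were deposited apart from the others, and whether its preparation differed was not tested. No replicates of a female were available, so the spread between libraries holds both the females and the handling of their oocytes.

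Oocyte markers were abundant in every library, whereas granulosa markers ranged widely. Zp2 was at 829, 2588, 2035, 2343 and 1655 CPM in replicates 1 to 5. Zp3 was at 709, 1705, 1463, 1573 and 2323 CPM. Bmp15 was at 1096, 2970, 2430, 2316 and 2060 CPM, and Gdf9 at 475, 851, 584, 918 and 1272 CPM. Each of these 4 oocyte genes was lowest in replicate 1. Amh was at 1203, 19.6, 9.99, 6.99 and 66.5 CPM, and Inha at 197, 0.550, 0.869, 1.57 and 32.9 CPM. Both granulosa genes were highest in replicate 1 and second highest in replicate 5, with replicates 2, 3 and 4 well below. More granulosa cells and more of these RNAs per granulosa cell cannot be told apart in libraries of pooled cells.

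In all, 9838 named genes reached 1 CPM in every library, 62.0% of the 15860. Of these genes 6851 reached 10 CPM and 1401 reached 100 CPM in every library, and 1486 had 0 counts in all 5. The counts were spread over many genes: 1258 named genes were needed to reach 50% of the named counts in replicate 1, against 806, 814, 875 and 929 in replicates 2 to 5. Replicate 1 also had the most named genes at 1 CPM, 12456 against 10851 to 11859 in the others, and the fewest at 1000 CPM, 50 against 65 to 76.

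Dnmt1, the maintenance DNA methyltransferase, had the highest median level of all named genes, with 5650, 12008, 12066, 12218 and 15187 CPM in replicates 1 to 5. Accsl followed with 4068, 13144, 12339, 9045 and 10487 CPM, and Nlrp14, a gene of the NLRP family that is transcribed in oocytes, with 4393, 11306, 10120, 10546 and 6355 CPM. The fourth, the translation elongation factor gene Eef1a1, was the most even of the 20 most abundant genes, at 7038, 5998, 6834, 6123 and 7524 CPM. By counts, which are not corrected for length, these 4 genes were well above the fifth, the fibroblast growth factor receptor gene Fgfr2, whose median was 2861 CPM. Reads of Eef1a1, Hspa8, actins, tubulins, Gapdh and ribosomal protein genes can be shared with near-identical copies, so their levels are uncertain.

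The other 15 of the 20 most abundant genes had medians of 1753 to 2421 CPM and came from several groups. Uhrf1, which brings DNMT1 to hemimethylated DNA, was at 1548, 2359, 2122, 2440 and 3279 CPM. Dnmt3a, a de novo DNA methyltransferase, was at 1231, 1857, 1629, 1753 and 2385 CPM. With Dnmt1, these put 3 DNA methylation genes among the 20. Wee2, the oocyte kinase that holds CDK1 inactive during meiotic arrest, was at 768, 2550, 2531, 2085 and 1629 CPM. The remaining named members included 2 genes of deubiquitinating enzymes, Usp9x and Usp2, the Notch ligand gene Jag1, the homeobox gene Otx2, the membrane-to-actin linker gene Ezr, the beta-spectrin gene Sptbn1, the nuclear receptor coactivator gene Ncoa3, the chaperone gene Hspa8, Pdzk1, Ubfd1, Zp2 and Bmp15. The plot of the 20 genes by library shows replicate 1 lowest for 19 of them, all but Eef1a1, a count that the choice by the median favours.

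**Figure D1:**
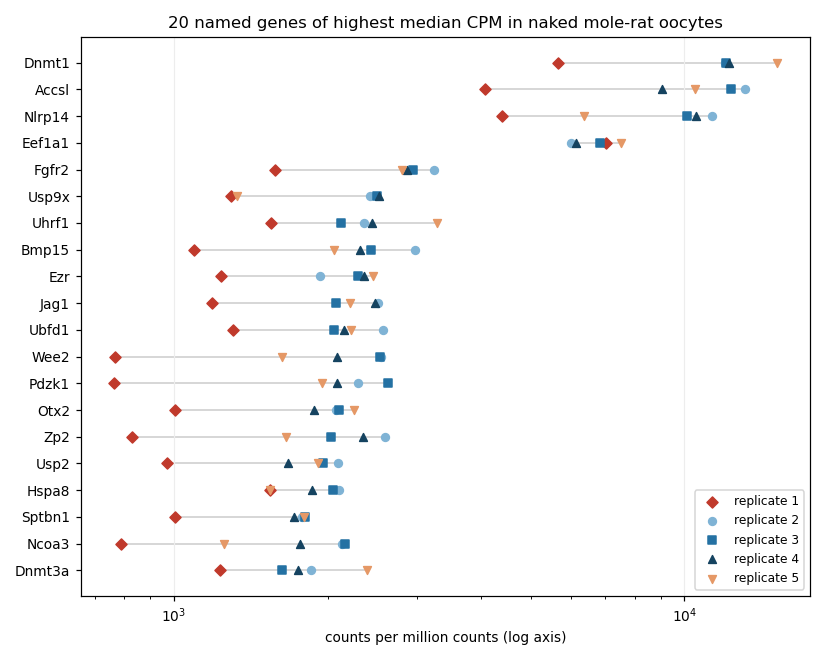
CPM (log axis) of the 20 named genes of highest median level, 1 row per gene and 1 marker per library, with a grey line from the lowest to the highest library. Dnmt1, Accsl, Nlrp14 and Eef1a1 lie apart from the other 16, and replicate 1 is lowest for every gene but Eef1a1.

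Of the 20 genes, 6 were in the top 20 of every library, and 38 of the 100 most abundant were in the top 100 of every library. Replicate 1 was lowest for 88 of those 100 genes and highest for 4, whereas over all 8786 named genes with a mean of at least 10 CPM it was lowest for 30.5% and highest for 38.4%. A choice by the median favours genes that are high in replicates 2 to 5, so the 88 are in part built in. Sparc, for example, had rank 3 in its highest library but rank 215 by the median. Replicate 5 was second lowest for 44 of the 88 genes and highest for 25 of them. These shares were near those of all 2677 genes with replicate 1 lowest, where the counts were 1281 and 645. Nlrp14 and Usp9x belonged to those low in both libraries, Usp9x with 1292, 2421, 2497, 2528 and 1328 CPM. Dnmt1, Uhrf1, Dnmt3a, Ezr and Otx2 were instead highest in replicate 5.

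The 10 most abundant named genes of replicate 1 included 6 that were in no other library's first 10. Sparc, which encodes a matricellular glycoprotein, was at 4940, 92.2, 306, 525 and 1458 CPM in replicates 1 to 5. Rgs5, a regulator of G protein signalling, was at 4417, 158, 854, 543 and 761 CPM. The other 4 were Actg1, Actb, Eef2 and Peg10, of which Peg10 had 2377 CPM in replicate 1 and 268, 478, 480 and 560 CPM in replicates 2 to 5. Sparc and Rgs5 are known from stromal and perivascular cells, and Sparc stands in the stroma list below.

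Grouped by function, genes of DNA methylation took the largest mean share of counts of the 28 lists examined, 1.11, 2.12, 2.05, 2.08 and 2.53% in replicates 1 to 5. The mean share was 1.98%, followed by 1.23% for cytosolic ribosomal proteins. Dnmt1 alone, with a mean of 11426 CPM, made up most of the DNA methylation share, so the first place of the list rests on 1 gene. Of the list's 11 members, 6 were among the 100 most abundant named genes, a set that holds 0.631% of all named genes. Besides Dnmt1, Uhrf1 and Dnmt3a, the 5-methylcytosine dioxygenase gene Tet2 was at 830, 1709, 1199, 1411 and 1335 CPM, and Tet3 at 714, 1071, 999, 858 and 1182 CPM. Dnmt3b, the other de novo methyltransferase gene, was at 465, 1041, 961, 872 and 929 CPM. Dnmt3l, the catalytically inactive cofactor of DNMT3A and DNMT3B, had 0 counts in every library, which allows up to 3 counts or 0.101 to 0.222 CPM. Replicate 1 was lowest for 9 of the 10 members with a mean of at least 10 CPM, against 30.5% of all such genes.

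Genes of meiotic arrest and maturation took 0.454, 1.05, 1.04, 0.954 and 0.866% of counts, and all 24 with an entry reached 1 CPM in every library. Beside Wee2, the spindle checkpoint gene Bub1b was at 502, 1614, 1750, 1398 and 946 CPM, and the meiotic cyclin gene Ccnb3 at 498, 1437, 1454, 1473 and 873 CPM. Replicate 1 was lowest for 15 of the 24, against 30.5% of all genes, and highest for 2, Cdk1 and Wee1, against 38.4%. Cdk1, the kinase that drives entry into division, was at 70.6, 17.8, 27.2, 15.3 and 18.8 CPM. Mos, the kinase of cytostatic arrest, was at 256, 374, 328, 353 and 454 CPM.

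The zona and gamete surface list took 0.204, 0.476, 0.381, 0.435 and 0.460% of counts. All 7 members with an entry were at 1 CPM in every library. Replicate 1 was lowest for 4 and highest for 1, against 30.5% and 38.4% of all genes. That exception was the tetraspanin gene Cd81, at 235, 12.4, 12.02, 17.1 and 68.2 CPM, so that replicates 1 and 5 were highest as for Amh. Among oocyte transcription regulators, replicate 1 was lowest for 7 of 9 and highest for none, against 30.5% and 38.4% of all genes. Sall4, a zinc finger gene, led that list with 463, 954, 857, 913 and 895 CPM, followed by Gtf2a1l, which encodes the germ cell form of a TFIIA subunit, with 202, 609, 740, 848 and 376 CPM. Tbpl2, the TBP-related factor of oocytes, was at 54.3, 117, 105, 94.8 and 151 CPM.

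In the piRNA and germ granule list, replicate 1 was lowest for 11 of 14 members, against 30.5% of all genes, and highest for none. The small RNA methyltransferase gene Henmt1 was at 172, 612, 474, 518 and 421 CPM. Gtsf1 was at 141, 307, 382, 300 and 178 CPM, and the Tudor domain gene Tdrd1 at 117, 389, 372, 288 and 178 CPM. Piwil3, a PIWI gene that mice lack, was at 86.3, 322, 270, 289 and 136 CPM. Genes of meiotic chromosome structure had replicate 1 lowest for 10 of 14, also against 30.5% of all genes.

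Genes that store maternal mRNA and genes that remove it were also compared by library. In the storage list, replicate 1 was lowest for 12 of 20, against 30.5% of all genes, and highest for 4, which were Zar1, Ddx6, Pabpc4 and Larp1. The translational regulators Eif4enif1 and Cpeb1 were at 455, 1106, 1022, 1243 and 1160 CPM and at 342, 732, 728, 627 and 635 CPM. In the list of deadenylation and decay, replicate 1 was lowest for 5 of 17 and highest for 6, shares near those of all genes (30.5% and 38.4%). Replicate 5 was lowest for 7 of the 17, against 15.9% of all genes. Btg4, the adaptor of the CCR4-NOT deadenylase in maternal mRNA clearance, was at 275, 772, 680, 652 and 531 CPM, and the deadenylase gene Cnot6l at 257, 461, 524, 447 and 197 CPM.

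The largest counts of members in the opposite direction were those of cytosolic ribosomal proteins. They took 2.79% of counts in replicate 1 and 0.581, 0.761, 0.861 and 1.15% in replicates 2 to 5. Replicate 1 was highest for 73 of 77 members, against 38.4% of all genes. The other 4 were Rpl11, Rpl36al, Rpl7l1 and Rps12. Replicate 5 was second for 52 of the 73, against 2128 of the 3375 genes with replicate 1 highest. The members differed widely in the size of the gap. Rpl6 was at 631, 489, 494, 584 and 558 CPM, whereas Rplp2 was at 254, 9.75, 8.62, 20.8 and 44.2 CPM.

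Glycolytic enzymes behaved in the same way, with replicate 1 highest for 13 of 14, against 38.4% of all genes. They took 0.424, 0.127, 0.120, 0.132 and 0.219% of counts. Eno1 was at 446, 37.0, 27.7, 53.6 and 119 CPM. The phosphofructokinase gene Pfkp was at 78.2, 0, 4.63, 6.28 and 26.5 CPM. Tpi1 was the exception, highest in replicate 5. Pfkp and Pgk1 passed the filter on the mean only through replicate 1, so the count is in part built in. Nuclear genes of oxidative phosphorylation had replicate 1 highest for 31 of 44, against 38.4% of all genes. It was lowest for 2, Ndufb11 and Sdhc, against 30.5%. Ndufb11 was at 51.7, 106, 131, 160 and 195 CPM.

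Proteasome subunits were the most even of the large lists. Their share was 0.349, 0.317, 0.317, 0.311 and 0.351%, and the median SD of log2(CPM + 1) over the 5 libraries was 0.30, against 0.50 over all 8786 genes. Of 31 members, 11 had an SD below 0.25, a level that 8.72% of all genes kept to. Psmd14 was at 141, 147, 164, 133 and 142 CPM. Psma1 was far from this, at 49.7, 2.49, 0.0724, 5.49 and 2.71 CPM. The plot of list shares shows the oocyte lists with replicate 1 at their low end and the ribosomal, glycolytic and granulosa lists with it at their high end.

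**Figure D2:**
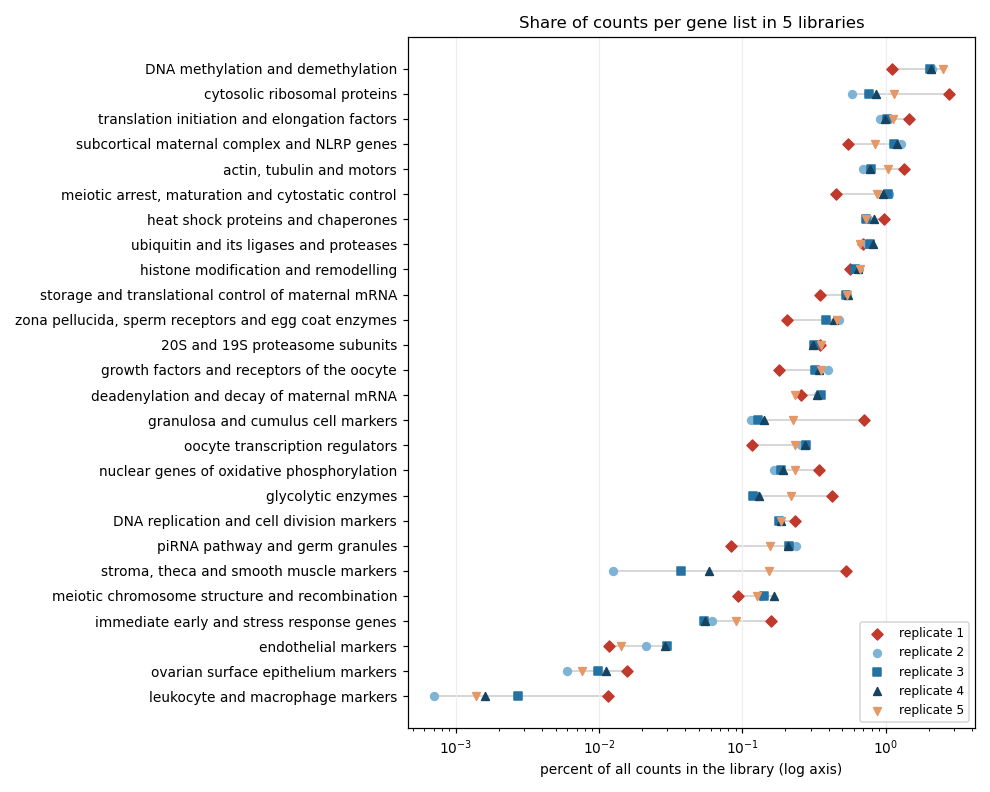
Percent of all counts in a library (log axis) taken by each of 26 gene lists, 1 marker per library, ordered by mean share. DNA methylation has the largest mean share, replicate 1 is at the low end of the piRNA, meiotic control and oocyte transcription lists, and it is at the high end of the ribosomal, glycolytic, granulosa and stroma lists.

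Of 27 granulosa and cumulus genes listed, 23 had an entry and 19 had a mean of at least 10 CPM. Replicate 1 was highest for 16 of the 19, against 38.4% of all genes. Replicate 5 was second for 15 of these 16, against 2128 of the 3375 genes with replicate 1 highest. Some members, such as Inha and Hsd17b1, passed the filter on the mean only through replicate 1, so these counts are in part built in. The list took 0.708% of counts in replicate 1 and 0.116, 0.129, 0.142 and 0.226% in replicates 2 to 5. Serpine2, a secreted protease inhibitor of cumulus cells, had the highest mean of the list through replicate 1, at 1385, 31.3, 105, 213 and 506 CPM, whereas Has2 and Nr5a2 had higher medians. Gja1, the gap junction gene of granulosa cells, was at 710, 26.6, 36.5, 59.3 and 162 CPM. Hsd17b1, which makes estradiol from estrone, was at 539, 1.54, 1.09, 3.99 and 25.98 CPM.

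The list did not move as 1 block. Has2, the hyaluronan synthase gene of expanding cumulus, ran the other way with 130, 454, 464, 366 and 227 CPM, and Gatm was lowest in replicate 1 as well. Nr5a2, a nuclear receptor gene, was nearly level at 314, 248, 292, 275 and 309 CPM. Star, which moves cholesterol into mitochondria, was at 0.962 CPM in replicate 1, 18.4 CPM in replicate 5 and up to 23.4 CPM in replicate 4. Lhcgr, the luteinizing hormone receptor gene, stayed at or below 1.39 CPM in every library.

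Markers of other ovarian cells differed in level. Of 16 stroma genes, 3 had a mean of at least 10 CPM. The summed stroma share was 0.525, 0.0124, 0.0373, 0.0588 and 0.154%, and without Sparc the other 15 genes took 0.0309, 0.00322, 0.00668, 0.00636 and 0.00850%. Beside Sparc, Col1a1, a fibrillar collagen gene, was at 126, 2.57, 27.7, 1.498 and 9.07 CPM. Myh11, the third of the 3, was instead highest in replicate 5, at 35.4, 18.7, 15.4, 37.0 and 48.1 CPM. Dcn, a defining stroma gene, stayed at or below 1.498 CPM. Of 11 leukocyte genes, 6 were below 1 CPM in every library or at 0, among them Laptm5 and Cd3e, and the largest, Cd74, was at 98.6, 0.623, 18.7, 11.3 and 8.32 CPM. Endothelial genes took 0.0118 to 0.0296%, with the lowest share in replicate 1 and 0 counts of Cldn5 in every library. Of 7 ovarian surface epithelium genes, 3 had a mean of at least 10 CPM. Epcam was at 78.1, 34.0, 70.3, 66.7 and 35.6 CPM, Muc16 at 10.9, 24.4, 22.1, 38.9 and 36.4 CPM and Krt18 at 55.9, 0, 6.01, 1.60 and 4.23 CPM, whereas Msln, a mesothelial marker, had 0 counts in every library. The part of any of these cells in the differences between libraries was not tested.

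The immediate early and stress list was also highest in replicate 1, for 10 of 15 members, against 38.4% of all genes. It was highest in replicate 5 for the other 5. Fos was at 75.9, 0.110, 1.01, 3.60 and 5.48 CPM. Jun was at 178, 2.82, 20.2, 8.20 and 41.2 CPM, and Junb at 93.8, 1.98, 0.507, 2.32 and 4.77 CPM. Fos and Junb thus passed the filter on the mean through replicate 1 alone, so the count is in part built in. Atf4, a stress-response factor, differed less, with 120, 53.8, 77.3, 41.5 and 87.6 CPM. Fosb did not share this order, with 126 CPM in replicate 1, inside the 117 to 222 CPM of the others.

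The balance of such counts over all genes depends on the scaling and on the filter. With TMM, which sets libraries level on the bulk of their genes, log2 values moved by -0.27 in replicate 1 and by -0.04 to 0.13 in the others. Replicate 1 was then highest for 29.9% and lowest for 42.7% of the 8786 genes, against 38.4% and 30.5% by library totals. With library totals and at least 10 CPM in every library, the shares were 28.7% and 36.6% of 6851 genes. Under TMM it was highest for 68 of the 77 ribosomal, 12 of the 14 glycolytic and 15 of the 19 granulosa genes, and lowest for 10 of the 10 DNA methylation and 13 of the 14 piRNA genes. For proteasome genes the split turned round, with replicate 1 highest for 13 and lowest for 6 by totals and highest for 7 and lowest for 13 under TMM.

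Over the 8786 genes the SD of log2(CPM + 1) had a median of 0.50, with quartiles of 0.36 and 0.73. The median SD that counting alone would give was 0.05, and 3 genes had an SD no larger than their own counting SD. Without replicate 1 the median SD was 0.40, and without replicates 1 and 5 it was 0.28. The last set was chosen after the values had been seen.

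The 15 genes of lowest SD by library totals were Phc3, Pop7, Stradb, Znf354c, Alkbh4, Ssh1, Psmb7, Mbtd1, Amer1, Pomt2, Zc3h11a, Ptk2, Atp6ap2, Ugdh and Alg6. Phc3, a Polycomb gene, was at 71.9, 70.0, 69.6, 72.8 and 71.6 CPM, an SD of 0.03. Pop7, a subunit of RNase P, was at 31.3, 30.6, 31.8, 33.8 and 31.8 CPM. None of the 15 was among the 15 of lowest SD under TMM, where their SDs were 0.12 to 0.25. The choice of the most even genes therefore rests on the scaling.

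An SD below 0.25 was found for 766 genes by totals, 614 under TMM and 349 under both. The genes that were lowest on the larger of both SDs, a ranking chosen after the values had been seen, were led by Ssh1, Phtf1, Elk4, Kiaa0355, Trappc13 and Cct3. Cct3, a subunit of the TRiC chaperonin, was at 261, 231, 217, 253 and 246 CPM, with an SD of 0.11 by totals and 0.13 under TMM. Ssh1, a phosphatase that activates cofilin, was at 50.1, 45.0, 45.8, 47.7 and 49.4 CPM, with SDs of 0.07 and 0.12.

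At the other end, 1290 genes had an SD above 1, which is 14.7% of those examined. Replicate 1 was the highest library for 1248 of them. The filter on the mean admits genes that reach it through replicate 1 alone, so that this count is in part built in by the filter and is no measure of which library varies. Among the 6851 genes with at least 10 CPM in every library, 307 had an SD above 1, and replicate 1 was highest for 298 and lowest for 6 of these. That filter leaves out genes that are near 0 in any library. The 15 of highest SD were Hsd17b1, Srebf1, Inha, Amh, Dhh, Tmem158, Adamtsl4, Nr5a1, Obsl1, Timp3, Sema4g, Rgs4, Ipo4, Lox and Fkbp10. The same 15 were found under TMM, and none of them reached 10 CPM in every library. Replicate 1 was highest and replicate 5 second in each, an order that the filter on the mean favours.

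In each of these 15 genes, at least 1 of replicates 2 to 4 was at or below 6.99 CPM. Srebf1, a regulator of lipid synthesis, was at 229, 0.0367, 0.941, 7.85 and 37.5 CPM. Nr5a1, the steroidogenic nuclear receptor gene, was at 124, 0.953, 0, 6.10 and 21.0 CPM. Dhh, a hedgehog ligand that granulosa cells secrete in mice, was at 147, 0.990, 0, 2.53 and 19.5 CPM. Lox, which crosslinks collagen, was at 741, 2.79, 62.7, 58.6 and 69.3 CPM, so that replicate 2 stood below replicates 3 and 4 as well. The plot of spread against level shows that high SDs were most frequent among genes of low mean level, and that the 20 most abundant genes had SDs of 0.14 to 0.72.

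**Figure D3:**
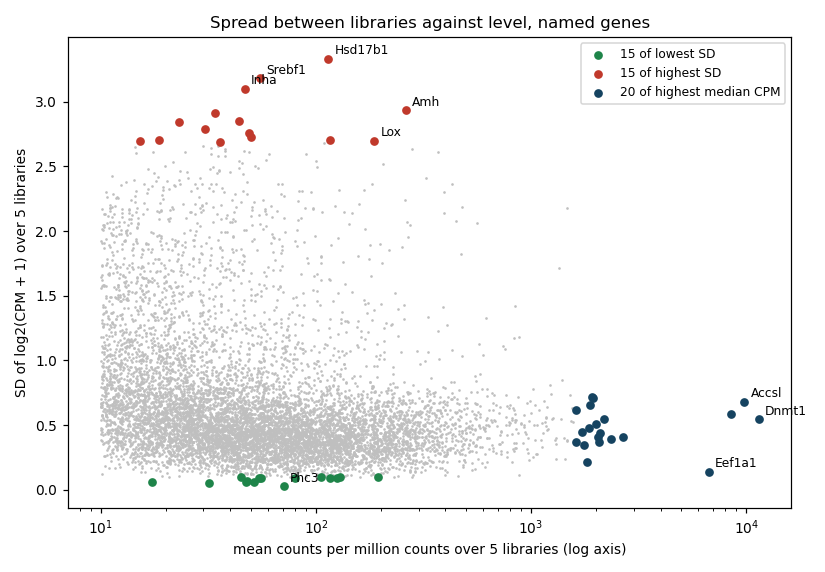
SD of log2(CPM + 1) over the 5 libraries against mean CPM (log axis) for the 8786 named genes with a mean of at least 10 CPM, 1 grey point per gene. The 15 genes of lowest SD are green, the 15 of highest SD red and the 20 of highest median level blue; Hsd17b1 is highest with an SD of 3.33, and the most abundant genes lie between 0.14 and 0.72.

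Genes commonly used as references were at the median no more even than other genes. Their median SD was 0.53, against 0.50 over all 8786 genes. Of 19 listed, 15 had an entry and 14 had a mean of at least 10 CPM. Of the 14, 1 had an SD below 0.25 and 6 an SD above 1, against 8.72% and 14.7% of all genes. Replicate 1 was highest for 10 of the 14, against 38.4% of all genes. Eef1a1 had the lowest SD, 0.14 by totals and under TMM. Actb was at 2528, 219, 277, 385 and 786 CPM, an SD of 1.42. Gapdh was at 865, 144, 164, 175 and 311 CPM, an SD of 1.07. Pgk1, another glycolytic gene, was at 119, 1.466, 0.0724, 10.1 and 18.6 CPM, an SD of 2.66.

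Several references differed less. Gusb was at 32.6, 19.98, 16.6, 23.1 and 21.7 CPM, with SDs of 0.34 by totals and 0.22 under TMM. Tfrc, the transferrin receptor gene, was at 639, 713, 911, 1194 and 718 CPM. Tbp was lowest in replicate 1, with 63.6 CPM against 107 to 143 CPM. Ywhaz did not exceed 5.06 CPM in any library. In the plot of reference genes, the ribosomal, actin and glycolytic members have replicate 1 at their high end and replicate 5 next to it.

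**Figure D4:**
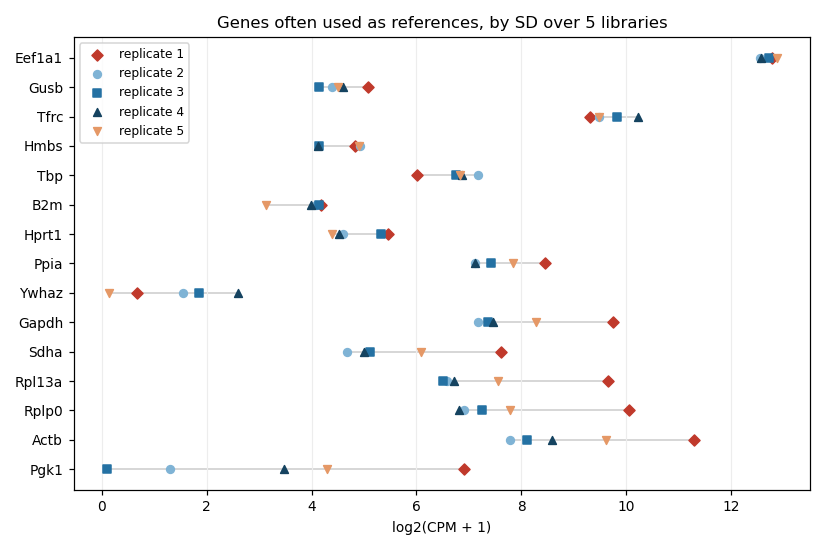
log2(CPM + 1) of 15 genes often used as references, ordered by SD over the 5 libraries, 1 marker per library. Eef1a1 is the most even, whereas Actb, Rplp0, Rpl13a, Sdha, Gapdh and Pgk1 are highest in replicate 1 and second highest in replicate 5.

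Genes were then placed by how they ran with Amh and Inha. The mean log2(CPM + 1) of this pair, taken as an index of granulosa RNA, was 8.93, 2.497, 2.18, 2.18 and 5.58 in replicates 1 to 5, so the libraries differed mainly in replicate 1 and then in replicate 5. For 2128 genes, 24.2% of the 8786, replicate 1 was highest and replicate 5 second. For 1281 genes, 14.6%, replicate 1 was lowest and replicate 5 second lowest. Under TMM these counts were 1538 and 1977. This order was chosen after the values had been seen, because replicates 3 and 4 had nearly the same index.

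A few of the genes with the steepest slopes among those in which replicate 1 was highest and replicate 5 second are given here, beside those of high SD above. Ihh, a second hedgehog ligand, was at 207, 2.02, 2.32, 4.39 and 28.1 CPM, and the Wnt ligand gene Wnt6 at 173, 1.61, 1.38, 2.104 and 9.84 CPM. Ngfr, the low-affinity neurotrophin receptor gene, was at 368, 6.34, 8.62, 4.24 and 62.3 CPM, and the basement membrane collagen gene Col4a2 at 495, 3.52, 12.1, 6.17 and 28.3 CPM. Others of the group were Csdc2, Wnk4 and Apcdd1l. All of these were chosen by their slope, so their order is a description.

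Slopes in the opposite direction were smaller: the lowest of all genes was -0.39 and the highest 1.10 log2 units per unit of the index. Tex15, which acts in germline piRNA silencing in mice, was at 37.8, 160, 137, 260 and 82.3 CPM. Ahr, the aryl hydrocarbon receptor gene, was at 47.4, 195, 172, 195 and 63.3 CPM. Cep57, a centrosome gene, was at 55.1, 240, 200, 353 and 135 CPM. CUNH2orf76 had the lowest slope, at 12.1, 93.7, 96.4, 90.2 and 72.8 CPM.

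The full order of the index, replicate 1, 5, 2, 3 and then 4, was kept by 221 genes (2.52%) and reversed by 247 genes (2.81%). The 221 include Amh, a part of the index, and 220 remain without it. Inha, the other part, was not in this order, with 0.550, 0.869 and 1.57 CPM in replicates 2, 3 and 4. By slope, the first of those that kept it were Adgrg1, Fdxr, Hdac10, Gpc3, Irf2bpl, Id3, H6pd, Kiaa1614, Pcdh17, Atg9b, Akr1a1 and Cdan1. Adgrg1, an adhesion G protein-coupled receptor gene, was at 140, 3.19, 1.81, 1.32 and 19.01 CPM. Fdxr, which passes electrons to mitochondrial steroid-forming enzymes, was at 207, 8.91, 5.00, 4.17 and 32.3 CPM. Gpc3, a glypican gene, was at 51.9, 1.65, 1.45, 0.107 and 7.58 CPM.

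The first of those that reversed it were Scg3, Pof1b, Rras2, Gpr160, Upf3b, Sass6, Gtf2a1l, Lca5, Rarb, Slain1, Ube2d3 and Tfb1m. Ube2d3, a ubiquitin-conjugating enzyme gene and the most abundant of them, was at 452, 1346, 1594, 1844 and 916 CPM. Upf3b, of nonsense-mediated decay, was at 31.1, 88.7, 128, 136 and 60.2 CPM, and Sass6, of centriole assembly, at 93.5, 316, 340, 363 and 176 CPM.

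Membership in these last lists hangs on replicates 3 and 4. Under TMM, with the 10 most abundant entries left out of the totals, or with a pseudocount of 0.5 CPM, the index put replicate 4 above replicate 3, and 0 of the 221 and 0 to 5 of the 247 genes were found again. The place of replicates 1 and 5 in the plot of these genes did not depend on this swap.

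**Figure D5:**
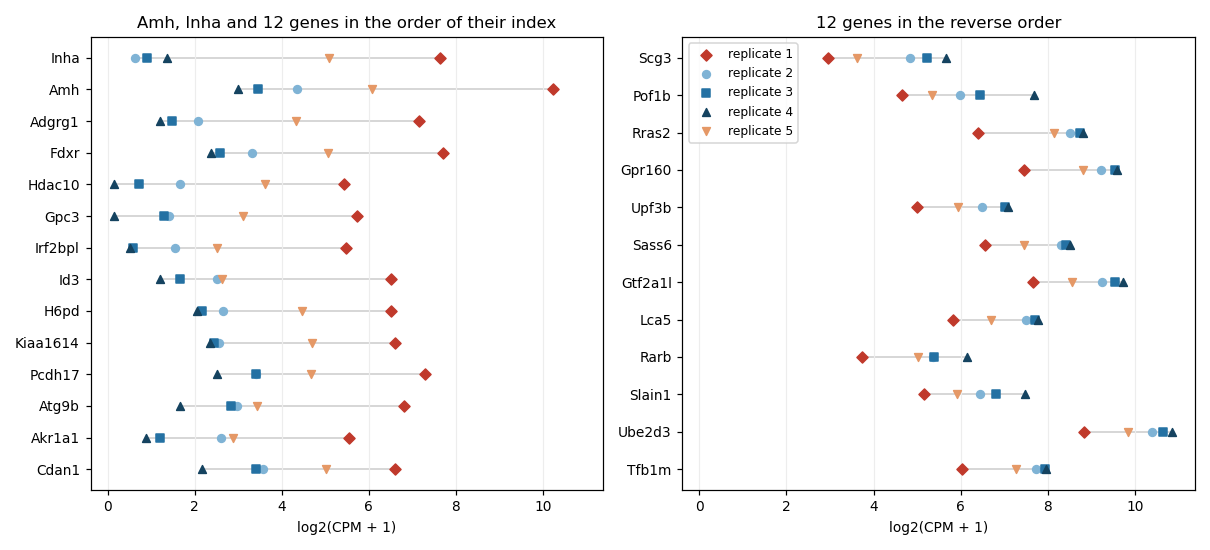
log2(CPM + 1) of Amh, Inha and the 12 genes of steepest slope in the order of their index (left), and of the 12 of lowest slope in the reverse order (right), 1 marker per library. Replicate 1 is the highest marker in each row on the left and the lowest on the right, with replicate 5 next to it, and the gap of replicate 1 to the rest is wider on the left.

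Replicate 5 took part in the pattern to an unequal degree. Among 2384 genes with more than 2 times the mean of replicates 2 to 4 in replicate 1, the excess of replicate 5 over that mean was 21.9% of the excess of replicate 1 at the median, with quartiles of 9.02 and 38.4%. Amh was at 4.56%, Hsd17b1 at 4.43%, Inha at 16.2%, Sparc at 24.8%, Serpine2 at 30.7% and Greb1, an estrogen-regulated gene, at 57.5%. The medians of the lists were 17.5% over 68 ribosomal, 18.8% over 15 granulosa, 23.2% over 12 glycolytic and 11.1% over 10 immediate early genes. The genes highest in replicate 1 were thus present in replicate 5 in different proportions, within the granulosa list from -4.71 to 69.8%.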

How the data were processed

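RNA of oocytes from 5 naked mole-rat females was sequenced after ribosomal RNA depletion and directional library preparation, with 1 library per female. The authors used Trim Galore for trimming, HISAT2 for mapping to the HetGla_female_1.0 genome and SeqMonk 1.47.2 for quantification, and the deposited values are raw counts per gene. The methods give Trim Galore 0.6.2 and HISAT2 2.0.5, the submitters' processing notes 0.6.1 and 2.1.0. The annotation and the options for strand and multiply mapped reads are not stated there. Totals were 13512223 to 29561451 counts, so 3 counts are 0.101 to 0.222 CPM; such limits cover counting error only.

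CPM was computed on library totals in Python 3.11.15 (pandas 2.3.3, numpy 2.4.6). Spread and slopes used log2(CPM + 1) for named genes with a mean of at least 10 CPM. The 5 libraries form 1 group, so no groups were compared; the only threshold applied was Dixon's critical value of 0.71 for 1 library standing apart from the other 4. Pairs of libraries differed by a chi-square per entry of 46.0 to 422, and none was a duplicate. TMM factors came from edgeR 4.0.16 in R 4.3.3. The scripts for order and spread were tested on simulated data.

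The members and the 28 gene lists were chosen with earlier results of these data known. The naming rule held the 20 genes of highest median CPM, the first 3 of each list, reference genes and markers. It also held the 15 genes of lowest and of highest SD. The 12 steepest slopes each way among genes in the full or reverse order completed it. Not all of these genes are named in the text. Genes outside this rule (such as Rgs5, Peg10, Fos, Eno1, Gja1 and the genes led by replicates 1 and 5) were picked after their values were seen. No sequences or transcript lengths were used here.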

Additional observations from a re-analysis of the deposited data

Results flagged for a closer look

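For the CPM of each named gene, without a log, and for each list share, gaps between libraries were examined. The gap between the highest or the lowest library and the library nearest to it was divided by the range of the 5 libraries. A library stood apart where this ratio exceeded 0.71, Dixon's critical value for 5 samples at the 5% level. Of 202 values examined, 61 did so, 54 of them genes and 7 list shares. The 5% level would give about 10.1 for unselected, independent values, which these are not, so the numbers cannot be compared. Replicate 1 was the highest library in 50 of the 61 and the lowest in 9. A scale without a log gives more weight to gaps above the rest, so these counts cannot be set against each other. Ratios on log2(CPM + 1), the scale of the spread and slopes, are not given here. Many of the genes were named because of their spread or order, so the number is a description.

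Among genes with replicate 1 far above the rest, the ratios were Tmem158 at 0.975, Id3 at 0.956, Hsd17b1 at 0.954, Wnt6 at 0.951, Amh at 0.95, Col4a2 at 0.949, Atg9b at 0.929, Lox at 0.91, Irf2bpl at 0.901, Csdc2 at 0.898, Apcdd1l at 0.897, Krt18 at 0.893, Rplp0 at 0.883, Rgs4 at 0.881, Akr1a1 at 0.878, Adgrg1 at 0.873, Ihh at 0.873, Pcdh17 at 0.869, Dhh at 0.867, Obsl1 at 0.865, Rpl13a at 0.863, Fdxr at 0.861, Fkbp10 at 0.856 and Gpc3 at 0.856. Closer to 0.71 were Pgk1 at 0.844, Ngfr at 0.84, Inha at 0.836, Srebf1 at 0.836, Nr5a1 at 0.83, Cd74 at 0.816, Zbed3 at 0.81, H6pd at 0.795, Col1a1 at 0.789, Kiaa1614 at 0.777, Gapdh at 0.769, Wnk4 at 0.761, Actb at 0.754, Sdha at 0.75, Actg1 at 0.745, Eef2 at 0.739, Adamtsl4 at 0.735, Hdac10 at 0.735, Timp3 at 0.727 and Sparc at 0.718. Slc4a1, an erythrocyte gene, was at 1 because it had counts in replicate 1 only. These were 2 counts, within the limit of 3 counts that 0 allows.

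In shares of counts, replicate 1 stood apart above the rest for DNA replication and cell division markers at 0.887. Granulosa and cumulus cell markers were at 0.814, leukocyte and macrophage markers at 0.814 and cytosolic ribosomal proteins at 0.742. Stroma, theca and smooth muscle markers were at 0.723. The ratio does not hold the size of the gap. The leukocyte share was only 0.0115% in replicate 1, most of it from Cd74 at 98.6 CPM. The share of DNA replication and cell division markers was 0.235% in replicate 1 and 0.183, 0.182, 0.188 and 0.185% in replicates 2 to 5. Of its 12 members, replicate 1 was highest for 6 and lowest for 3 by totals, and highest for 4 and lowest for 6 under TMM. Replicate 1 stood apart below the rest in the share of storage and translational control of maternal mRNA at 0.899. Oocyte transcription regulators were at 0.725. Among genes, replicate 1 did so in Sptbn1 at 0.898, Sall4 at 0.803, Psmd11 at 0.783 and Fgfr2 at 0.742. Cpeb1 was at 0.731, and CUNH2orf76 and Eif4enif1 were at 0.72. Replicate 5 was the library that stood apart, below the rest, for B2m at 0.754 and Eif4g2 at 0.745.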

How the results depend on the processing

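No paired analysis was possible because all 5 libraries form 1 group. CPM divided by coding length was not run, since no coding lengths were at hand. Of the 20 most abundant genes, 18 to 19 were found again when each replicate was left out, and 19 under TMM.

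Under TMM, 0 of the 15 most even genes were found again and replicate 1 then 5 was lowest for 1977 genes. The full order of the index was kept by 333 genes with totals without the 10 most abundant entries, 338 with a pseudocount of 0.5 CPM and 469 with an index of the whole granulosa list. With a mean of at least 1 CPM, 2912 genes had an SD above 1, replicate 1 was highest for 5397 genes, and replicate 1 then 5 for 3218. With at least 10 CPM in every library, 307 had an SD above 1 and 0 of the 15 most variable genes remained, since the filter takes out genes that are low in any library. Without a filter, 3055 had an SD below 0.25 and 2931 above 1, and 0 of the 15 most even genes were found again. Without replicates 1 and 5, chosen after the data were seen, 3878 had an SD below 0.25 and 184 above 1, with 0 of the most even and 3 of the most variable found again.

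Leaving out each replicate gave 405 to 1126 genes in the order of the index and 535 to 853 in reverse (4 libraries have fewer orders), 326 to 1563 with an SD above 1 and 794 to 1852 below 0.25, with 1 to 7 of the most even and 4 to 13 of the most variable 15 found again. Without replicate 1 there were 326 genes above 1 and 1852 below 0.25, with 4 of the most variable 15 found again, and without replicate 5 there were 1375 below 0.25 and 1 of the most even 15; these counts filter anew on the mean of the libraries left. The counts of members with replicate 1 highest or lowest were recomputed for 12 lists in some of the alternative runs only. These were TMM, totals without the most abundant entries, the smaller pseudocount and the lower filter on the mean. Each replicate other than replicate 1 was also left out in turn. The counts changed by less than 1.5 times in each of these runs. They were not recomputed with the minimum in every library, without a filter or without replicates 1 and 5. Whether the list counts hold under the minimum in every library was therefore not tested.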
